A study of Mus musculus with 3 samples.

Results

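The NF-kB family and its own inhibitors were followed as 10 genes, chosen by gene name: the subunits Nfkb1, Nfkb2, Rel, Rela and Relb, the cytoplasmic inhibitors Nfkbia, Nfkbib and Nfkbie, the nuclear IkB protein Nfkbiz, and Tnfaip3. They are 10 of 36864 gene names on the array and carry 20 of its 56597 probes. The cells were RAW264.7, a mouse macrophage line, and all 3 groups received LPS, the TLR4 agonist, for 3 h. In the first group LPS was given alone, and in the other two the macrophages were stimulated beforehand with Lactiplantibacillus plantarum LOC1 or LOC3, both isolated from fresh tea leaves. The design text of the series gives 12 h for that stimulation, the methods a longer time, and by the methods the lactobacilli were washed off before LPS. RNA of each group was hybridised to 1 one-colour Agilent array, so no SD or test between conditions can be given for any difference below, and both lactobacilli groups were compared with the same LPS array. The array of unchallenged macrophages was not analysed here, but the deposited log2 ratios refer to it.

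NF-kB factors are dimers of Rel-domain proteins: RelA, c-Rel and RelB carry an activation domain, while p50 and p52 are cut from the precursors encoded by Nfkb1 and Nfkb2. In resting macrophages the IkB proteins hold the dimers in the cytoplasm. TLR4 signalling activates the IkB kinase, IkB is degraded and the dimers move to the nucleus, where several of the genes they switch on are inhibitors of the pathway itself. IkB-alpha (Nfkbia) is the best known of these, A20 (Tnfaip3) edits ubiquitin chains on upstream adaptors, and IkB-zeta (Nfkbiz) acts in the nucleus as a cofactor for secondary genes such as Il6.

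The 250 bases before the start site are shown for 5 members because they hold matches to the kappaB element, the sequence that NF-kB dimers bind. Sequences are those of RefSeq on GRCm38.p6, read 5′ to 3′ on the strand of the gene, and the capitals mark each match to the 10-base kappaB consensus on either strand (3 G, a purine, any base, A or T, 2 pyrimidines and 2 C). Overlapping matches form 1 run of capitals.
Nfkbia, minus strand, chr12:55492648-55492897: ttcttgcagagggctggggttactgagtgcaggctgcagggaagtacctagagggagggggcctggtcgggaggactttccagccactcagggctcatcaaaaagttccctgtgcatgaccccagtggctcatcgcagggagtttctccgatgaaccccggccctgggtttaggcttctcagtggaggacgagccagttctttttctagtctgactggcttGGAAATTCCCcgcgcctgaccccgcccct
Tnfaip3, minus strand, chr10:19015411-19015660: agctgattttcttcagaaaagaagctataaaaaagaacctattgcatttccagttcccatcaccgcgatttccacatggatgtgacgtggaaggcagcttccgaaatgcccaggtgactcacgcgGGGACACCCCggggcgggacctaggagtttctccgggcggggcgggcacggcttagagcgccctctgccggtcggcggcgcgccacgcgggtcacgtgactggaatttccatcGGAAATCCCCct
Rel, minus strand, chr11:23770970-23771219: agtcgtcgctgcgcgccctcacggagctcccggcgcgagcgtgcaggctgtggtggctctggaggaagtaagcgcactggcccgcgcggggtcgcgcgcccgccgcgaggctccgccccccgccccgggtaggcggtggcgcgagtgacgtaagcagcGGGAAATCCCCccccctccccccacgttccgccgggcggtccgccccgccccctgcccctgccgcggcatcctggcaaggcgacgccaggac
Nfkbie, plus strand, chr17:45555450-45555699: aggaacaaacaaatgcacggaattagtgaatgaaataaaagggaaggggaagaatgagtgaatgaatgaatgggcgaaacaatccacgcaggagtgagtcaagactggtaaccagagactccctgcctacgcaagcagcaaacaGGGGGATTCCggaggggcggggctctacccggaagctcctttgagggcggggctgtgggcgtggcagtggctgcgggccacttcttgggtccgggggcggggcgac
Nfkb2, plus strand, chr19:46304487-46304736: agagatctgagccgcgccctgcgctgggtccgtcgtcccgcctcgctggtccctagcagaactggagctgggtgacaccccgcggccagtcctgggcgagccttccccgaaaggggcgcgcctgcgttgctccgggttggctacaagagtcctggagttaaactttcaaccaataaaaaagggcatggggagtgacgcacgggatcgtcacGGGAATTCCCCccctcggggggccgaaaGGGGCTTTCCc

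The match in Nfkbia lay 29 to 20 bases before the start, and one of those in Tnfaip3 12 to 3 bases before it. Windows were given for 7 of the 10 members, and Nfkb1, Relb and Nfkbiz have none. Of these 7 genes, 5 (71.4%) held a consensus match in at least 1 window, against 4.46% of 27025 genes with a window, and Rela and Nfkbib held none. Genes with several windows had more chances to match: Nfkb2 has 3, all with a match, and Tnfaip3 has 2, of which the one not shown held none. Over windows, 7 of 10 held a match, against 3.90% of 32851. A looser form, which takes in the consensus and asks only for 3 G, any 5 bases and 2 C, was in 6 of the 7 (85.7%) and in 48.7% of all genes. A match describes the letters of the window and was not tested for binding.

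With LPS alone, every gene of the family was listed above unchallenged macrophages. In the authors' deposited log2 ratios, which list a probe only where it lies at least 2-fold from unchallenged macrophages, 15 of the 20 member probes stood in the table as higher with LPS and 0 as lower, where 7.08% of all probes were higher and 6.31% lower. The LOC1 column also held 15 as higher and 0 as lower (7.96% and 8.52% of all probes), and so did the LOC3 column (8.02% and 8.88%). Among the 29349 probes well above background on the LPS array, 10.3% were listed as higher. Each of the 10 genes had a listed probe, although the brightest probes of Nfkb2 and Rela are not listed. Why they are missing was not settled, and it does not show that they changed less than 2-fold. No replicate stands behind these ratios.

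The largest ratios to unchallenged cells belonged to the nuclear and the ubiquitin-editing inhibitors. Nfkbiz was listed at a log2 ratio of 7.13 with LPS alone, which is 140-fold, at 7.40 with LOC1 and at 7.52 with LOC3. Tnfaip3 was listed at 7.08, which is 135-fold, at 6.51 with LOC1 and at 6.75 with LOC3. For both genes the 3 conditions stood far above the unchallenged signal that the ratio implies, an intensity of 113 for the Nfkbiz probe and 219 for the Tnfaip3 probe. The cytoplasmic inhibitors had smaller ratios.

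Nfkbia, the IkB that terminates the response, was listed at 4.10 (17.1-fold) with LPS, 4.09 with LOC1 and 4.18 with LOC3. Nfkbie, which encodes IkB-epsilon, was listed at 3.21 (9.26-fold), 3.91 and 3.89 in the same order. Nfkbib, which encodes IkB-beta, was listed at 2.87 (7.31-fold), 3.18 and 3.20. The ratio of Nfkbia was thus nearly the same in the 3 conditions, and those of Nfkbie and Nfkbib were lowest with LPS alone.

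Among the subunits, Relb was listed at 3.66 (12.6-fold) with LPS, 3.11 with LOC1 and 3.26 with LOC3. Nfkb1 was listed at 3.02 (8.09-fold), 2.86 and 2.96, and the listed probe of Nfkb2 at 3.35 (10.2-fold), 3.17 and 3.30. Rel, the gene of c-Rel, was listed at 3.06 (8.35-fold), 3.61 and 3.72. Rela had the smallest ratio of the family, 1.49 (2.80-fold) with LPS, 1.79 with LOC1 and 1.77 with LOC3, on its dimmer probe. Rel and Rela were thus listed higher with both lactobacilli than with LPS alone, and Relb lower.

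**Figure D1:**
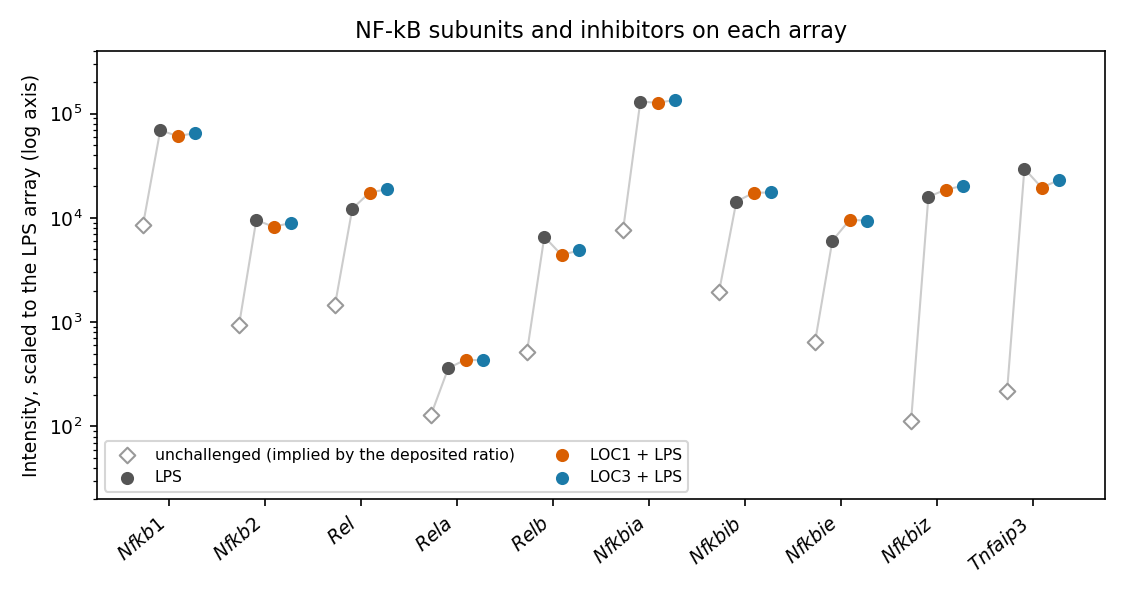
Intensity of 1 probe per gene (log axis), the brightest that has a deposited ratio, for unchallenged macrophages as implied by that ratio (open diamonds) and for the LPS, LOC1 and LOC3 arrays (filled circles, each array scaled to the 75th percentile of the LPS array), with 1 array per condition. For all 10 genes the diamond lies below the 3 circles, by 140-fold for Nfkbiz and 2.80-fold for Rela with LPS alone, and the circles of a gene lie close together (Nfkb2 and Rela by their dimmer probe).

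The effect of the lactobacilli on this family was then read from the arrays themselves, as the log2 of the intensity relative to the 75th percentile of its array, with each gene given by its brightest probe. Intensities in the text below are printed before that scaling. Differences and folds are taken after it, so they are not the ratios of the printed intensities. None of the 10 genes differed 2-fold from LPS alone, with LOC1 (0 of 10, where 2.49% of 20018 genes were at least 2-fold higher and 3.81% lower) or with LOC3 (0 of 10, where 2.97% of 19789 genes were higher and 3.18% lower). The differences of the members lay between -0.60 and 0.66 with LOC1 and between -0.44 and 0.64 with LOC3. Most of them were larger than the spot noise: the technical SD of a log2 difference between 2 arrays was 0.06 for bright probes, from probes printed 10 times on each array, and 9 of 10 genes differed by more than that with each strain. That SD leaves out the variation between cultures. Differences beyond it were common among genes at large, so the count does not set the members apart. The lower and upper quartiles over all genes were -0.28 and 0.23 with LOC1, and -0.22 and 0.24 with LOC3. The median over the members was 0.10 with LOC1 and 0.17 with LOC3, beside 0.00 and 0.03 over all genes compared.

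Rel was the subunit most above LPS alone. Its brightest probe (mm9, chr11:23637051-23637110) had an intensity of 12231 with LPS, 16155 for LOC1 and 17504 for LOC3. Both lactobacilli arrays were thus above the LPS array, with log2 differences of 0.51 for LOC1 and 0.62 (1.54-fold) for LOC3, and the other Rel probe gave 0.66 and 0.73. Rela, the gene of the RelA (p65) subunit, had 46648 with LPS, 58529 for LOC1 and 57349 for LOC3 on its brightest probe (chr19:5648070-5648129). Its differences were 0.44 and 0.40, and 0.27 and 0.24 on the dimmer probe, so the lactobacilli arrays were again the higher ones on each probe.

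Relb, the subunit of the noncanonical pathway, showed the opposite order. Its brightest probe (chr7:20191722-20191781) had an intensity of 6599 with LPS, 4072 for LOC1 and 4533 for LOC3, with differences of -0.58 for LOC1, just short of 1.5-fold, and -0.44 for LOC3 (1.35-fold). A second probe gave -0.65 and -0.49. The third, for a separate transcript model and dim on every array, had 59.5, 55.0 and 51.0 and differences of 0.00 and -0.12, under the technical SD of dim probes (0.28).

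Of the subunits, the precursor genes were closest to LPS alone on their brightest probes. Nfkb2 had 18484 with LPS, 14392 for LOC1 and 14953 for LOC3 on its brightest probe (chr19:46386440-46386499), with differences of -0.25 and -0.20, and -0.21 and -0.09 on the other. Nfkb1 had 69169 with LPS, 56273 for LOC1 and 60248 for LOC3 (chr3:135247898-135247958), with differences of -0.19 and -0.10, which become 0.03 and 0.09 when the arrays are scaled to their medians, a scaling that moves the median of all genes by 0.22 and 0.18. The 3 probes of Nfkb1 disagreed in size. The second gave -0.22 and -0.12, whereas the third, which lies elsewhere in the gene (chr3:135275144-135275203) and is assigned to a separate transcript model, had 1440 with LPS, 748 for LOC1 and 680 for LOC3. Its differences of -0.83 (1.78-fold lower) and -0.98 (1.97-fold lower) were the largest of any member probe, and its deposited ratio to unchallenged cells was 2.93 with LPS, 2.13 for LOC1 and 1.99 for LOC3.

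Of the cytoplasmic inhibitors, Nfkbie stood highest above LPS alone. Its single probe (chr17:45700000-45700059) had an intensity of 6036 with LPS, 8831 for LOC1 and 8778 for LOC3 before scaling. After scaling, LOC1 and LOC3 lay 1.58-fold and 1.56-fold above LPS (0.66 and 0.64). Nfkbib had 14335, 16082 and 16314 in the same order on its brightest probe (chr7:29544167-29544848), with differences of 0.28 and 0.29, and 0.29 and 0.24 on the other probe. Nfkbia, read by a single probe that crosses an intron (chr12:56590945-56591440), had 130338, 117246 and 125651 before scaling. Its differences after scaling, -0.04 and 0.05, were both inside the technical SD of bright probes. Their sign depended on the scaling: scaling to the medians gave 0.18 and 0.23, and quantile normalization -0.11 and -0.05. The inhibitor genes thus differed among themselves, with Nfkbie above LPS alone on both arrays and Nfkbia closer to it than the spot noise.

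Nfkbiz and Tnfaip3, the pair with the largest LPS ratios, lay on opposite sides of LPS alone. The brightest Nfkbiz probe (chr16:55812091-55812150) had an intensity of 15896 with LPS, 17257 for LOC1 and 18861 for LOC3, with differences of 0.23 and 0.35. Its second probe gave 0.12 and 0.20, and the third, for another transcript model, was not well above background on any array. Tnfaip3, on its single probe (chr10:18720776-18720835), had 29619 with LPS, 18021 for LOC1 and 21467 for LOC3. The LPS array was here the highest and LOC1 the lowest, 1.52-fold below LPS (-0.60) with LOC1 and 1.28-fold below (-0.36) with LOC3.

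**Figure D2:**
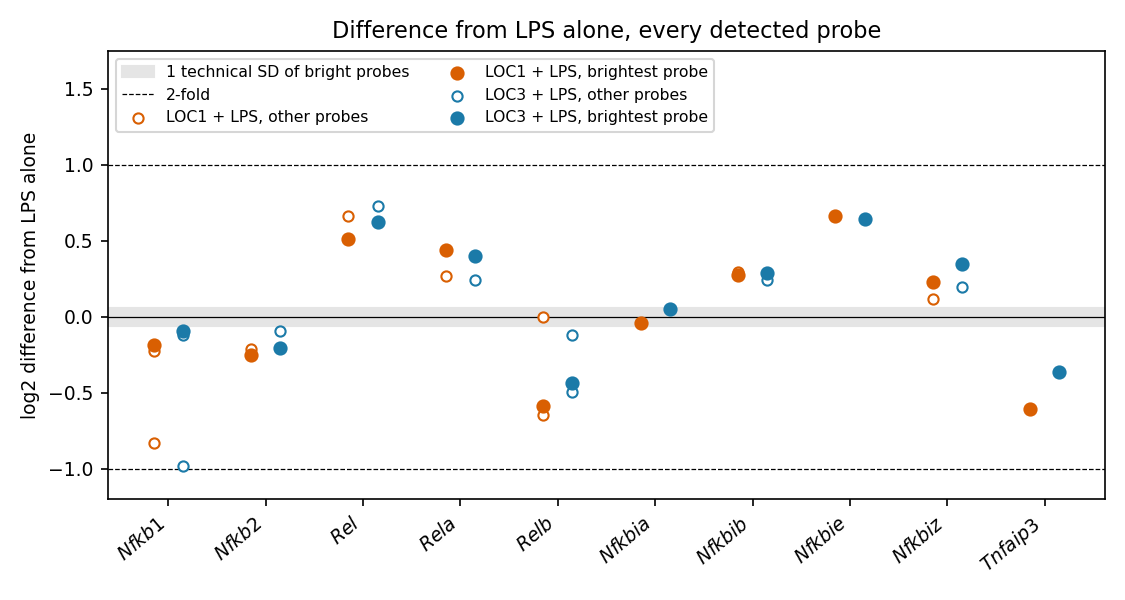
The log2 difference from LPS alone for every member probe well above background on all 3 arrays, with filled circles for the brightest probe of a gene, open circles for its other probes, and a grey band of 1 technical SD of bright probes (0.06). No point passes the dashed 2-fold lines; Rel, Rela, Nfkbib, Nfkbie and Nfkbiz lie above 0 with both strains and Nfkb1, Nfkb2, Relb and Tnfaip3 below (Nfkb1 turns above 0 when arrays are scaled to their medians), while the third Nfkb1 probe (-0.83 and -0.98) lies away from the other two of that gene.

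At a lower threshold of 1.5-fold, 2 members passed with LOC1, Nfkbie above and Tnfaip3 below LPS alone, where 7.69% of all genes were higher and 11.4% lower by that much. With LOC3, Rel and Nfkbie passed, both above, where 7.81% of genes were higher and 9.49% lower. The members lay within the spread of genes at large. Over all genes, the 5th and 95th percentiles of the difference were -0.90 and 0.73 with LOC1 and -0.83 and 0.76 with LOC3, and every member lay inside them.

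**Figure D3:**
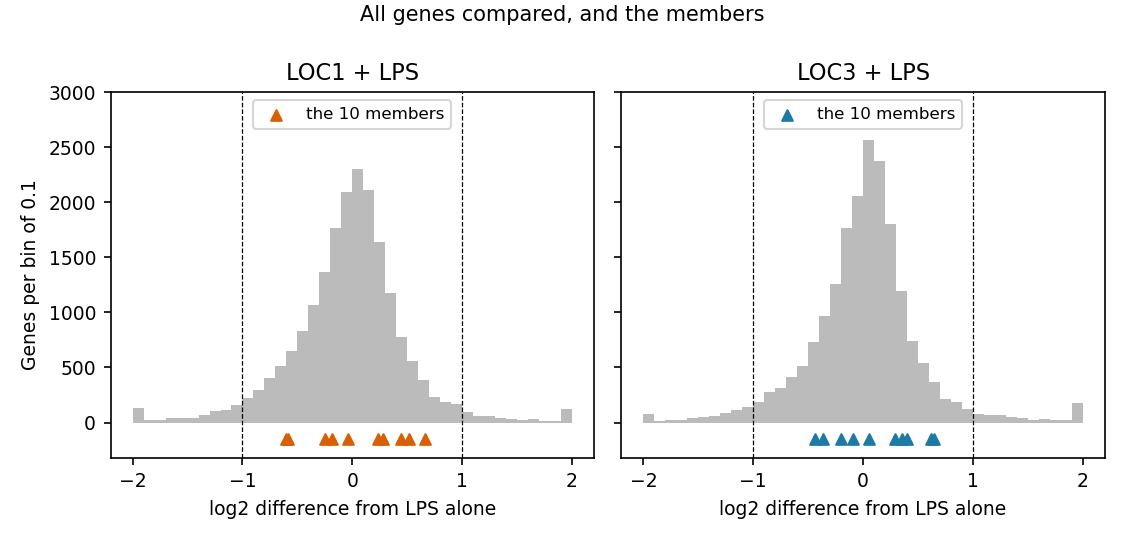
Number of genes in bins of 0.1 of the log2 difference from LPS alone, for LOC1 (left, 20018 genes) and LOC3 (right, 19789 genes), with the outermost bins holding all genes beyond them, the 2-fold limits as dashed lines, and the 10 members as triangles under the axis. The triangles run from -0.60 to 0.66 on the left and from -0.44 to 0.64 on the right, inside the 2-fold limits and on both sides of 0.

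The strains differed little from each other in these genes. LOC1 against LOC3 gave differences between -0.24 and 0.04, with 0 of 10 members past 2-fold, where 0.8% of 19381 genes were higher with LOC1 and 1.83% lower. The median over the members was -0.09, beside -0.02 over all genes. Tnfaip3 had the widest gap, 1.18-fold lower with LOC1 than with LOC3 (-0.24), followed by Relb at 1.11-fold (-0.15), and Rela, Nfkbib and Nfkbie differed by 0.04 or less between the strains. None passed 1.5-fold, where 2.04% of all genes were higher and 3.75% lower by that much. Of the 10 differences, 4 were inside the technical SD of spots. The lower and upper quartiles over all genes were -0.10 and 0.08.

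Genes upstream of the family lay in a range like that of its members. Of 30 kinases, adaptors and ubiquitin ligases that activate NF-kB, 0 passed 2-fold on the brightest probe with LOC1 (range -0.63 to 0.59, median 0.11). With LOC3 it was 0 as well (range -0.47 to 0.60, median 0.13), beside 6.30% and 6.15% of all genes in either direction. Map3k8, the kinase TPL2, had an intensity of 1251 with LPS, 748 for LOC1 and 838 for LOC3 (-0.63 and -0.47), and its other probe gave -1.14 and -0.97. Ikbke, an IkB kinase related to TBK1, had 6315, 3943 and 4293 (-0.57 and -0.45), and its other probe gave -1.73 and -1.06. Both genes were highest on the LPS array, and for both the dimmer probe was the more distant one. Map3k14, the kinase NIK of the noncanonical pathway, gave -0.39 and -0.31, and Tab1, a partner of TAK1, gave -0.35 and -0.37. The other probes of Map3k14 lay further below LPS alone with both strains, the lowest past 2-fold with LOC3. Another probe was also past 2-fold below for the IkB kinase gene Ikbkb with LOC1 and for Birc3 with LOC3. No other probe of the 30 genes was past 2-fold above LPS alone. Higher than LPS alone were Fbxw11, a subunit of the ligase that marks IkB for degradation (0.59 and 0.60), Tab3, another TAK1 partner (0.51 and 0.52), Ripk1, an adaptor kinase (0.49 and 0.52), and Tank, an adaptor of the TBK1 complex (0.48 and 0.53). The other probes of Fbxw11, Ripk1 and Tank lay on both sides of 0.

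Among 22 further brakes, which include atypical IkB proteins, A20 partners and deubiquitinases, 2 were past 2-fold below LPS alone with LOC1, Bcl3 and Tnip3, and 1 with LOC3, Tnip3. That is 9.09% of the list with LOC1, beside 6.30% of all genes past 2-fold, and 4.55% with LOC3, beside 6.15%. None was past 2-fold above it on its brightest probe, except that Irak3 was so with both strains when arrays were scaled to their medians. Tnip3, an A20-binding protein, had an intensity of 19841 with LPS, 5211 for LOC1 and 7724 for LOC3 before scaling. After scaling, LOC1 and LOC3 lay 3.52-fold and 2.39-fold below LPS, and its other probe gave -1.52 and -1.05. Bcl3, a nuclear IkB protein that binds p50 and p52, had 45037, 16616 and 23337 before scaling, and after it lay 2.51-fold and 1.80-fold below LPS. The order was thus LPS, LOC3, LOC1 in both, as it was in Tnfaip3 and Relb. Tnip1, another A20 partner, gave -0.37 and -0.13 (-0.66 and -0.73 on its other probe), and Tnip2, of the same family, -0.22 and -0.10. Other brakes were higher than LPS alone: Irak3, the inhibitory kinase IRAK-M, had 3571, 5855 and 6180 (0.83 and 0.89), and Traf1, an adaptor with restraining roles, had 38528, 58191 and 57256 (0.71 and 0.68). The other probes of Irak3 gave 0.83 to 0.85 with LOC1 and 0.79 to 1.06 with LOC3, the highest past 2-fold. Nfkbid, the nuclear protein IkB-NS, gave 0.54 and 0.53, and Nkiras1, which binds IkB-beta, 0.51 and 0.47.

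**Figure D4:**
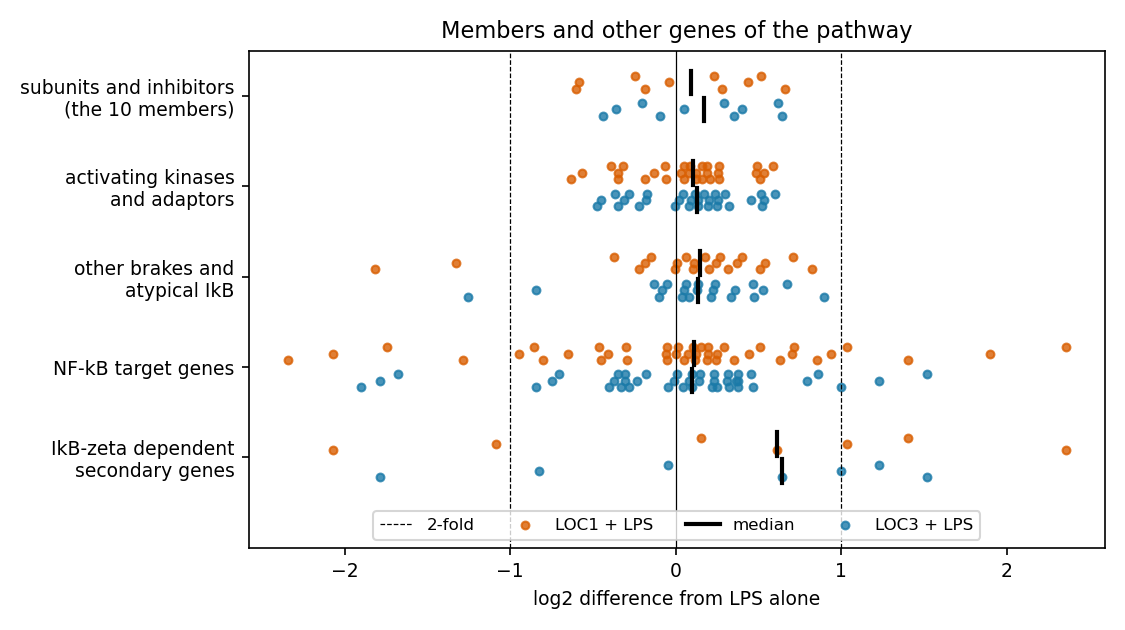
The log2 difference from LPS alone for each gene (points) of the 10 members and of 4 lists of pathway genes, LOC1 above LOC3 in each row, with black bars at the medians and dashed lines at 2-fold; the height of a point within its row carries no value. The members and the activating kinases and adaptors stay inside the 2-fold lines, and the target genes reach from -2.34 to 2.36 with LOC1.

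The target genes of NF-kB spread much wider than the factors. Of 45 names of known targets, 42 are on the array. The list was chosen with earlier results of these data known, so its shares describe the list and test nothing. With LOC1, 4 of the 42 were past 2-fold above LPS alone (Il6, Csf2, Cxcl1 and Lcn2) and 4 below (Il12b, Ccl22, Vcam1 and Cd83), 19.0% in all beside 6.30% of all genes. With LOC3, 3 were above (Il6, Csf2 and Lcn2) and 3 below (Il12b, Vcam1 and Cd83), 14.3% beside 6.15%. Ccl22 and Vcam1 entered these counts by their signal on the LPS array alone, and with genes well above background on both arrays the counts were 6 with LOC1 and 5 with LOC3. The medians over the list were 0.11 and 0.10, beside 0.00 and 0.03 over all genes. Lcn2, an iron-scavenging acute-phase protein, had an intensity of 68833 with LPS, 130398 for LOC1 and 128129 for LOC3 before scaling. After scaling it lay 2.05-fold above LPS for LOC1 and barely past 2-fold for LOC3. It was short of 2-fold with both strains under the percentile over detected probes, quantile normalization and normexp, and the deposited ratios do not list its brightest probe. The adhesion molecule gene Vcam1 was well above background on the LPS array (79.7) and not on the other two, so that LOC1 lay at least 5.08-fold and LOC3 at least 3.74-fold below LPS. On its other probe the LOC1 and LOC3 signals were also raised to the lowest one well above background. Its values (-0.26 and 0.18) reflect that limit and are not measured differences. The chemokine gene Ccl22 had 38.3 with LPS, and LOC1 lay at least 2.44-fold and LOC3 at least 1.80-fold below it. Under normexp, Cxcl1, Ccl22 and Vcam1 did not pass 2-fold with LOC1, nor did Vcam1 with LOC3. Below LPS but short of 2-fold were Il1b, the gene of a pyrogenic cytokine (-0.95 and -0.71, with its other probes past 2-fold with both strains), and Ier3, an immediate early gene (-0.86 and -0.75). Il1b passed 2-fold with LOC1 under the percentile over detected probes, quantile normalization and normexp. Under the mean of probes it passed with both strains. At 1.5-fold, 9 targets were above and 8 below LPS alone with LOC1 (7.69% and 11.4% of all genes), and 5 above and 6 below with LOC3 (7.81% and 9.49%). Between the strains, 1 of 40 targets passed 2-fold, Cxcl1, which was higher with LOC1, except under normexp, where none did. That is 2.5% of the targets beside 2.63% of all genes.

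Of 7 secondary genes known to need IkB-zeta, 3 were past 2-fold above LPS alone with each strain (Il6, Csf2 and Lcn2), and 2 below with LOC1 (Il12b and Ebi3) and 1 with LOC3 (Il12b), which is 71.4% and 57.1% of this short list beside 6.30% and 6.15% of all genes. Ebi3, the shared chain of IL-27 and IL-35, had an intensity of 62783 with LPS, 27311 for LOC1 and 33025 for LOC3 (-1.09 and -0.82). When arrays were scaled to their medians, Ebi3 was short of 2-fold with LOC1. Edn1, the gene of endothelin, gave 0.61 and 0.64, and Csf3, the gene of G-CSF, gave 0.15 and -0.04. Of these 7 genes, 5 are also in the list of targets, so the shares of this list repeat part of the shares given there. This list too was chosen with earlier results known.

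The arrays resembled each other in their technical measures. All 3 lay on 1 slide and came from 1 scan, no spot was saturated, and 47.8% to 51.9% of probes were well above background. Of 10 macrophage markers, 9 were well above background on all 3 arrays, and Mrc1 was so on the LPS array alone. Markers of 5 other cell types summed to an intensity of 4496 with LPS, 6259 for LOC1 and 6114 for LOC3, against 628791, 559050 and 597506 for the macrophage markers. Lck made up most of that sum (3086, 4935 and 4812), and 9 of the 20 markers were well above background on all 3 arrays: 4 of 4 for fibroblasts, 3 of 4 for T cells, 2 of 4 for neutrophils and 0 of 4 for each of epithelial and B cells. The part of these signals in the differences was not tested. The reference genes Actb (0.03 and 0.08) and Gapdh (0.26 and 0.31) also differed from LPS alone, Gapdh by about as much as Nfkbib.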

How the data were processed

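RNA of RAW264.7 macrophages was measured on 1 array per condition (LPS, LOC1 and LPS, LOC3 and LPS). The authors deposited spot intensity values, background-subtracted by Feature Extraction 12.0.3.1 per the file headers and not normalized between arrays, with mm9 probe positions. They also deposited log2 ratios to unchallenged macrophages, normalized in GeneSpring and left blank under 2-fold. A missing ratio does not by itself show a change under 2-fold. The brightest Nfkb2 probe has none, while the other probe of that transcript is listed at 10.2-fold with LPS. The columns imply 1 reference for all arrays.

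Outlier spots were left out (118 to 135 per array), the log2 intensity was taken less the 75th percentile of the array (an intensity of 513 to 555), and a gene was read by its brightest probe. Genes were compared when well above background on at least 1 of 2 arrays. A dimmer signal was raised to the lowest one well above background (14.5 to 19.8), which makes such a difference a lower bound (at least N-fold). The threshold was 2-fold, as in the methods, without their t-test, which needs more arrays. The number of arrays limits the precision. Dim probes, more than 2-fold under the 75th percentile, had 8 to 11 tenfold-printed probes behind their technical SD, and bright ones 269.

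The members and lists were chosen with earlier results of these data known. All members are named, and in each other list up to 4 genes at either end among those well above background on all 3 arrays, by the mean of both differences, with any gene past 2-fold. Ikbkb and Birc3 are named for another probe past 2-fold. The alternatives were other scalings, normexp (offset 50, limma 3.58.1, R 4.3.3), the mean of probes, outlier spots kept, other filters, 1.5-fold, and the deposited ratios. Python 3.11.15, numpy 2.4.6, pandas 2.3.3 and matplotlib 3.10.9 were used. Of 20 member probes, 15 matched the gene by accession, and the rest carry the name of the array design.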

Additional observations from a re-analysis of the deposited data

Results flagged for a closer look

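Plau, the gene of urokinase and one of the NF-kB targets, was the gene among the members and lists whose brightest probe lay above LPS alone with LOC1 (0.20) and below it with LOC3 (-0.40), each more than the spot noise of bright probes (0.06). Its intensity was 462 with LPS, 490 for LOC1 and 326 for LOC3, and its other probe was below LPS alone with both strains (-0.41 and -0.67). The difference between the strains was not tested, since each had 1 array.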

How the results depend on the processing

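No paired analysis was possible because each condition has 1 array, and no array could be left out for the same reason. No alternative put a member past 2-fold in any of the 3 comparisons. Of the values per list and comparison, 147 were classed as the same and 24 as moved. That class did not require equal values. With LOC1 and arrays scaled to their medians, the targets past 2-fold went from 8 to 10, which was classed as the same. The IkB-zeta dependent genes went from 5 to 4 there and were classed so too. The median over the members was 0.31 with LOC1 and 0.35 with LOC3 when arrays were scaled to their medians, which moved the median of all genes by 0.22 and 0.18. It was 0.030 and 0.088 when the percentile was taken from detected probes, and with LOC3 0.077 under quantile normalization and 0.070 under normexp. Scaling to the medians turned the sign of Nfkb1 with both strains and of Nfkbia with LOC1. The percentile over detected probes, quantile normalization and normexp turned that of Nfkbia with LOC3, and these, the medians and the mean of probes that of Nfkbib between the strains.

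At 1.5-fold, members numbered 2 with each strain, kinases and adaptors 2 with LOC1 and 1 with LOC3, brakes 4 and 4, and targets 17 and 11, where 7.69% of all genes were higher and 11.4% lower with LOC1 and 7.81% and 9.49% with LOC3. Between the strains 3 targets and 1 IkB-zeta dependent gene then passed. The mean of probes put 1 kinase, Ikbke, past 2-fold with LOC1, and scaling to the medians added Irak3 to the brakes past it, 3 with LOC1 and 2 with LOC3. Under normexp the targets past 2-fold were 5 with LOC1 and 0 between the strains. In the deposited ratios, which leave many probes out, they were 4 with LOC1 and 3 with LOC3, and the IkB-zeta dependent genes 3 and 2. The cause of these moves was not tested. For the dim genes Vcam1 and Ccl22 the background allows bounds only.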
